A study of Homo sapiens with 6 samples.

Results

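The expression of all genes was compared between MDA-MB-231 cells infected with sh-MIR100HG-2, one of a pair of short hairpin RNAs (shRNAs) against the long non-coding RNA MIR100HG, and cells infected with the control vector sh-TRC. The members were the 15372 genes, of 27745 listed, that had at least 5 counts in at least 4 of the 6 libraries of the series. MDA-MB-231 is an established triple-negative breast cancer line, which lacks the oestrogen and progesterone receptors and amplification of HER2. All cells received a pLKO.1 lentivirus made in a kidney packaging line and, by the study's methods, were collected 72 h after infection, so the controls received a virus too. There were 2 libraries of sh-TRC and 2 of sh-MIR100HG-2, and 2 libraries of the other shRNA, sh-MIR100HG-1, shared the model and are given where the shRNAs are compared. The cells were infected populations of 1 cell line. A figure legend of the study calls the 2 libraries of each MIR100HG shRNA biological replicates, and does not say so of the controls. Neither the legend nor the labels say whether replicates were separate infections. The p-values therefore measure the spread between these libraries, which may be partly technical.

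MIR100HG is the host gene of the microRNAs miR-100, let-7a-2 and miR-125b-1 on chromosome 11. An shRNA is cut by DICER1 into a guide strand of microRNA size that is loaded into an Argonaute protein, where full pairing leads to cleavage of the target and pairing of the seed alone (bases 2 to 8) can lower other mRNAs, as it does for microRNAs. Progression from G1 to S phase is driven by cyclin-dependent kinases and their cyclins, opposed by the inhibitors p21 (CDKN1A) and p27 (CDKN1B), opened by phosphatases such as CDC25A and checked by WEE1. The study examined this experiment for cell cycle genes.

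The sequences below are those through which the hairpin and the microRNAs of the host gene can act. Capitals mark bases 2 to 8 of each guide or microRNA, and in the target the bases opposite them. Target and guide were taken from the arms of the oligonucleotide the study lists, and the mature microRNAs from RefSeq.
sh-MIR100HG-2 target: gagagtgacctacAGAATAAa
sh-MIR100HG-2 guide: uUUAUUCUguaggucacucuc
let-7a-5p: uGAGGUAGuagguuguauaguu
miR-125b-5p: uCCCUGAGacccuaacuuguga
miR-100-5p: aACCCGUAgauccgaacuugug
The target matched GRCh37 at 1 place, chr11:121961961-121961981 on the minus strand, in an exon of MIR100HG. It lay in 30 of the 107 transcripts annotated for the gene (GENCODE release 44 on GRCh37) and within the exons that were counted. The 4 seeds differ from one another.

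Total counts ran from 46067690 to 58410375 in the 4 libraries compared. The mesenchymal markers of the line were present in all of them, with vimentin (VIM) at 1772 and 2095 CPM (counts scaled to 1e6 per library, with TMM factors) in the controls and 1889 and 1805 with sh-MIR100HG-2, and PGR, the progesterone receptor, had 0 counts in all 4. The second sh-TRC library and the first sh-MIR100HG-1 library stood apart from the rest. They shared 129 genes that were at least 5-fold above the other 4 libraries (30 counts or more), FOXA1 among them. The 129 genes summed to 358 and 375 CPM of library total against 6.48 to 11.1 in the other 4. No other pair of libraries shared more than 1 such gene. Of these 129 genes 28 were tested, and 13 of the 28 were lower with sh-MIR100HG-2 at an unadjusted p under 0.05 and 0 were higher. Counts were therefore also taken without these 2 libraries, and that fit is given beside some of the results. It keeps only the first control library, so the spread within groups came from the sh-MIR100HG-2 libraries alone. Its log2FC values were nearly those of the fit without the second control (1.08 for CDKN1B in both), so it is not a separate check of them.

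With edgeR's quasi-likelihood test and Benjamini-Hochberg adjustment over all genes, 0 of the 15372 genes (0.0%) passed at 0.05, and the smallest adjusted p was 0.322. Before adjustment 1362 genes (8.86%) had a p under 0.05. Levels were higher with sh-MIR100HG-2 in 570 of them (3.71% of all genes) and lower in 792 (5.15%). Of these, 25 higher and 164 lower genes had a log2 fold change (log2FC) beyond 2. Over all 15372 genes, whatever their p, the log2FC was below 0 in 8326 and above 0 in 7046. Both sh-MIR100HG-2 libraries lay above both controls in 2785 genes (18.1%) and below both in 3135 genes (20.4%). At an adjusted p of 0.05, edgeR's likelihood ratio test called 121 genes (0.787%), 61 higher and 60 lower, and DESeq2 called 167 of the 13881 genes to which it gave an adjusted p (1.2%), 96 higher and 71 lower. The 101 genes called by both were 58 higher and 43 lower ones. "Higher" and "lower" therefore describe levels. An adjusted p with no tool named is that of the quasi-likelihood test, and counts of list members use the unadjusted p of the same test.

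MIR100HG, the target, was at 41.9 and 58.5 CPM in the controls and at 16.6 and 10.4 CPM with sh-MIR100HG-2. The groups did not overlap, averaging 50.2 ± 11.8 CPM (SD, n = 2) with sh-TRC and 13.5 ± 4.35 CPM (SD, n = 2) after knockdown, a level 3.72-fold lower. Its log2FC was -1.90 (standard error 0.31, adjusted p = 0.356 by edgeR's quasi-likelihood test). By p it was number 10 of the genes tested and number 4 of the lower ones. Its adjusted p was 0.000176 by the likelihood ratio test and 2.73e-05 by DESeq2. The other shRNA left 15.2 and 13.2 CPM, and the shRNAs were not distinguished at this gene (difference of -0.07, standard error 0.30, adjusted p = 0.943).

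Of the protein-coding genes beside MIR100HG, SORL1 had lower levels and UBASH3B showed no clear direction. SORL1, a sorting receptor gene at chr11:121322912-121504402, was at 24.6 and 34.7 CPM in the controls and 17.7 and 20.8 CPM with sh-MIR100HG-2 (log2FC -0.62, standard error 0.26, adjusted p = 0.553). UBASH3B, a phosphatase gene at chr11:122526383-122685181, was at 123 and 129 CPM in the controls and 111 and 147 CPM after knockdown. Its log2FC was 0.04 with TMM and -0.02 with upper-quartile scaling, and the groups overlapped. BLID, a gene inside the span of MIR100HG, had only 5 to 15 counts in each of the 4 libraries, too few to show a difference.

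**Figure D1:**
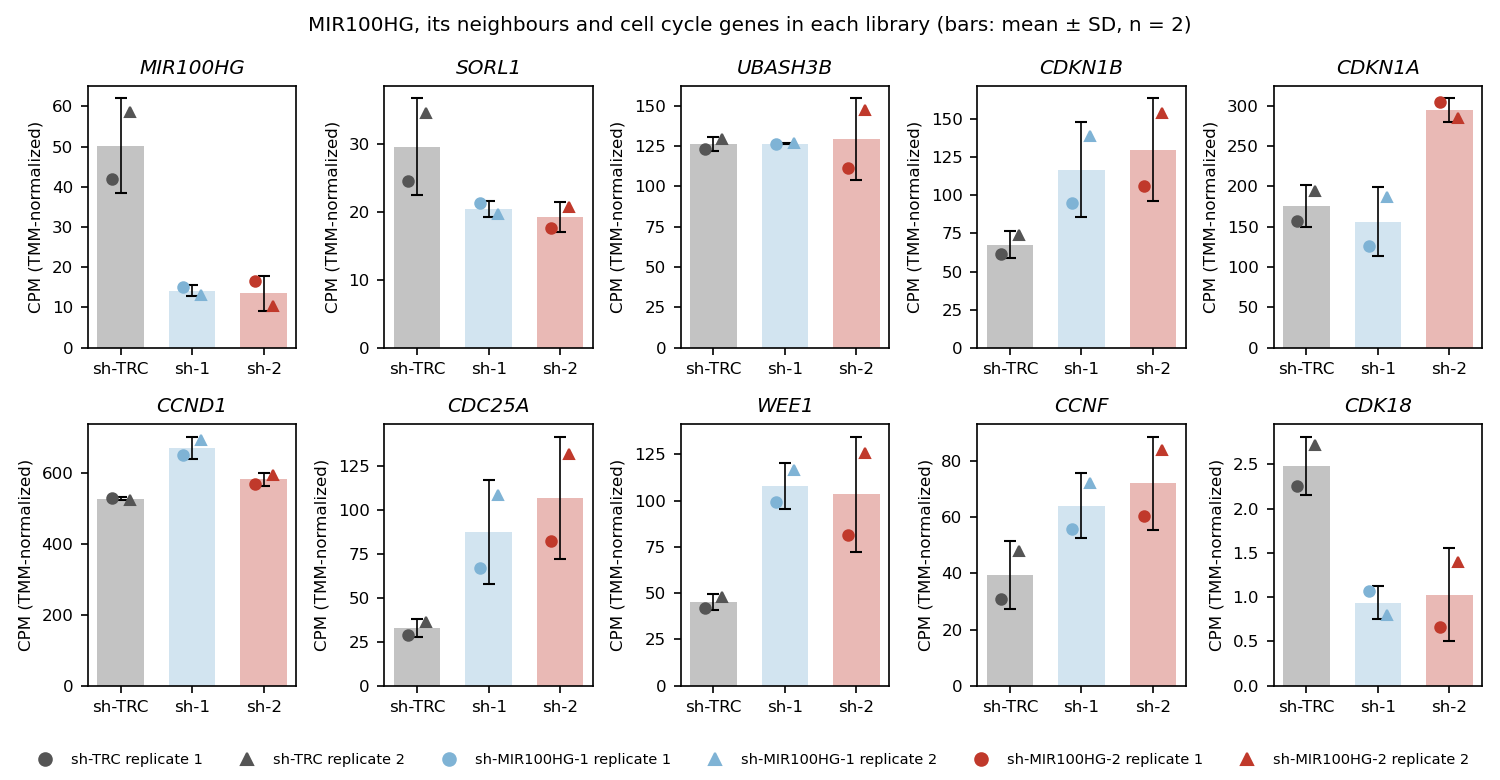
MIR100HG, 2 of its neighbours and 7 cell cycle genes, in TMM-normalized CPM on axes that start at 0. Points are single libraries and bars the mean ± SD of 2 (sh-1 is sh-MIR100HG-1, sh-2 is sh-MIR100HG-2). MIR100HG was at 16.6 CPM or less in all 4 knockdown libraries against 41.9 and 58.5 CPM in the controls, and CDKN1A was at 305 and 285 CPM with sh-MIR100HG-2 against 127 and 186 CPM with sh-MIR100HG-1.

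The cell cycle genes of the study that were higher with sh-MIR100HG-2 included both activators and brakes. CDC25A, the phosphatase that activates CDK2, was at 29.0 and 36.3 CPM in the controls and 82.5 and 132 CPM after knockdown (log2FC 1.72, standard error 0.33, adjusted p = 0.406). WEE1, the kinase that holds CDK1 inactive, was at 42.1 and 48.2 CPM against 81.4 and 126 CPM (log2FC 1.20, standard error 0.26, adjusted p = 0.41). For both genes the groups were far apart, although the second knockdown library was above the first, and both passed edgeR's likelihood ratio test (adjusted p of 0.0018 and 0.0226) and DESeq2 (adjusted p of 0.00105 and 0.0133). CDKN1B (p27) was at 61.5 and 74.0 CPM in the controls and 106 and 154 CPM after knockdown, a log2FC of 0.94 (standard error 0.28, adjusted p = 0.498). CDKN1A (p21) was at 157 and 195 CPM against 305 and 285 CPM, a log2FC of 0.75 (standard error 0.25, adjusted p = 0.508). Neither inhibitor passed at an adjusted p of 0.05 by any of the 3 tests, although the groups did not overlap for either. Without the filter on low counts CDKN1B passed the quasi-likelihood test (adjusted p = 0.0312), and CDKN1A did not (adjusted p = 0.136). CCNF, the cyclin of a ubiquitin ligase, had a log2FC of 0.88 (adjusted p = 0.508), and CDK18 one of -1.27 (adjusted p = 0.545) at levels of 0.661 to 2.72 CPM. Cyclin D1 (CCND1) was at 532 and 525 CPM in the controls and 571 and 597 CPM after knockdown, a log2FC of 0.14 with a standard error of 0.19.

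Of the 28 tested genes in a list of G1 cyclins, kinases and their inhibitors, 8 were higher at p under 0.05 (28.6%, against 3.71% of all genes). In the same list 1 was lower (3.57%, against 5.15%). Of these, CDC25A, WEE1, CCNF, CDKN1B and the lower CDK18 are genes that the study named as changed in these same data. The shares are therefore no separate support. The list is not of G1 alone, since CDC25C and CKS1B are also in the list of G2 and mitosis below. Its median log2FC was 0.24, against -0.04 over all genes and 0.07 over those of 30 to 100 CPM. Beside those above, SKP2, the ubiquitin ligase subunit that marks p27 for destruction, was at 19.1 and 28.9 CPM in the controls and 61.0 and 56.9 CPM with sh-MIR100HG-2 (log2FC 1.30, adjusted p = 0.406). It passed the likelihood ratio test at an adjusted p of 0.0072 and DESeq2 at 0.00254. CDK6, a cyclin D partner that was picked here after its values were seen, was at 91.6 and 101 CPM against 186 and 240 CPM (log2FC 1.14, adjusted p = 0.455). The count of higher and lower genes was 4 and 2 without the first control library, 10 and 0 without the second, 7 and 1 without the first knockdown library and 5 and 3 without the second.

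Most genes of G2 and mitosis had lower levels with sh-MIR100HG-2. Of 54 tested G2 and mitosis genes, 45 had a log2FC below 0, with a median of -0.33. At p under 0.05, 8 were lower (14.8%, against 5.15% of all genes) and 2 higher (3.7%, against 3.71%). Both knockdown libraries lay below both controls in 17 of the 54 (31.5%, against 20.4% of all genes) and above in 3. TOP2A, the topoisomerase that untangles chromosomes, was at 616 and 474 CPM in the controls and 385 and 309 CPM with sh-MIR100HG-2 (log2FC -0.65, adjusted p = 0.515). CDK1, the mitotic kinase, was at 133 and 81.4 CPM against 67.8 and 55.1 CPM (log2FC -0.80, adjusted p = 0.515), and TTK, a spindle checkpoint kinase, at 53.6 and 24.9 CPM against 21.7 and 16.2 CPM (log2FC -1.05, adjusted p = 0.513). The second control was in each case nearer to the knockdown libraries than the first. CKAP2, a spindle protein, was at 120 and 86.0 CPM in the controls and 67.4 and 59.4 CPM after knockdown. LBR, a protein of the inner nuclear membrane, went the other way, from 104 and 100 CPM to 171 and 170 CPM (log2FC 0.74, adjusted p = 0.455). The count of lower genes rested on single libraries, and over all genes it also moved with each library left out. The median of the list was -0.24 without the first control library and -0.39 without the second. It was -0.33 without the first knockdown library, -0.34 without the second and -0.39 without the 2 libraries that stood apart. TOP2A and CDK1 were picked after their values were seen.

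The S-phase list of 43 genes had a median log2FC of -0.12, with 1 gene higher and 1 lower at p under 0.05 (2.33% each). Of all genes 3.71% were higher and 5.15% lower. FEN1, a flap endonuclease of lagging-strand synthesis, was at 114 and 115 CPM in the controls and 149 and 174 CPM with sh-MIR100HG-2, and ATAD2, a chromatin ATPase, at 113 and 95.1 CPM against 81.0 and 63.1 CPM. Direct tests between the shRNAs gave 0 genes at an adjusted p of 0.05. Before adjustment, in 20 of the 54 G2 and mitosis genes and 6 of the 43 S-phase genes, sh-MIR100HG-2 was below sh-MIR100HG-1 at p under 0.05, and in 0 of either list was it above, while 9.45% of all genes differed between the shRNAs in one direction or the other.

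The 10 higher genes with the smallest p, of those with a symbol, a mean of 1 CPM or more and no overlap between the groups, had log2FC values from 1.18 to 2.35 and adjusted p from 0.322 to 0.396. Each of the 10 passed both the likelihood ratio test and DESeq2 at an adjusted p of 0.05. Both tests used the counts by which the genes were chosen, so they are no separate support. COL1A1, the alpha 1 chain of type I collagen (chr17:48260650-48278993), led them, with 20.2 and 17.2 CPM in the controls and 62.6 and 78.0 CPM with sh-MIR100HG-2 (log2FC 1.91, standard error 0.23). The other shRNA gave 46.5 and 45.5 CPM, below sh-MIR100HG-2 by 0.61 on the log2 scale (adjusted p = 0.509). COL1A2, the partner chain of the same collagen, was at 3.87 and 2.99 CPM in the controls and 1.32 and 5.87 CPM after knockdown, so that its groups overlapped.

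A pair of related transcription factor genes was among the 10. ARID3A was at 10.3 and 12.9 CPM in the controls and 47.3 and 62.9 CPM with sh-MIR100HG-2 (log2FC 2.24, standard error 0.30). ARID3B, its paralog, was at 7.02 and 6.64 CPM against 22.7 and 46.8 CPM (log2FC 2.35, standard error 0.43). Both were more than 4-fold higher in the mean, and ARID3B varied more between the knockdown libraries. POU2F2, an octamer-binding factor best known from B cells, was at 41.6 and 41.0 CPM against 149 and 114 CPM (log2FC 1.67), with sh-MIR100HG-1 at 59.4 and 79.6 CPM (difference 0.92, adjusted p = 0.509).

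Genes of receptors were also among the 10. IL6R, the interleukin 6 receptor, was at 4.37 and 2.53 CPM in the controls and 16.7 and 16.4 CPM with sh-MIR100HG-2 (log2FC 2.26, standard error 0.33). ACVR2B, a type II receptor of activins, was at 17.0 and 21.1 CPM against 54.3 and 50.4 CPM (log2FC 1.46, standard error 0.23). In both genes the knockdown libraries lay close together and well above the controls. RMND5A, of a ubiquitin ligase complex, was at 45.8 and 42.9 CPM in the controls and 111 and 90.4 CPM after knockdown, and ZDHHC18, a palmitoyltransferase, at 29.0 and 34.3 CPM against 72.9 and 70.4 CPM. FAM222B was at 18.3 and 26.7 CPM against 75.4 and 64.6 CPM, and ZCCHC3, a co-sensor of foreign nucleic acid, at 20.6 and 36.3 CPM against 87.0 and 92.0 CPM.

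The 10 lower genes with the smallest p, which include MIR100HG, had log2FC values from -3.52 to -1.16 and adjusted p from 0.322 to 0.406. Each also passed the likelihood ratio test and DESeq2, again on the counts by which the genes were chosen. IGFBP1, a secreted binding protein of insulin-like growth factors, was at 33.4 and 27.5 CPM in the controls and 7.74 and 7.59 CPM with sh-MIR100HG-2 (log2FC -1.99, standard error 0.30). LINC00261, a long non-coding RNA, was at 27.7 and 25.4 CPM against 6.30 and 8.93 CPM (log2FC -1.80, standard error 0.28). Both were only partly lower with the other shRNA, at 15 and 24.5 CPM for IGFBP1 and 16.5 and 20.9 CPM for LINC00261. The direct differences of -1.36 and -1.29 did not pass (adjusted p = 0.509 for both).

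PTPRS, a receptor tyrosine phosphatase, was at 154 and 122 CPM in the controls and 44.9 and 42.7 CPM with sh-MIR100HG-2 (log2FC -1.66, standard error 0.26). DAZAP2, a small proline-rich adaptor, was at 144 and 135 CPM against 63.8 and 48.1 CPM (log2FC -1.32, standard error 0.23). PTPRS was 3.15-fold and DAZAP2 2.49-fold lower in the mean. LCLAT1, a lysophospholipid acyltransferase, was at 20.8 and 19.8 CPM in the controls and 5.45 and 7.19 CPM after knockdown (log2FC -1.68). ATOH8, a basic helix-loop-helix factor, was at 6.57 and 4.96 CPM against 1.15 and 1.20 CPM (log2FC -2.30). KCTD12 was at 56.1 and 48.8 CPM against 21.4 and 25.4 CPM, and REEP2, a shaper of the endoplasmic reticulum, at 24.5 and 19.1 CPM against 6.55 and 8.17 CPM. PLEKHG4B had the lowest log2FC of the 10 (-3.52) at 3.11 and 1.55 CPM in the controls and 0.242 and 0.160 CPM after knockdown, that is 8 to 167 counts per library. When single libraries were left out, the 10 higher genes stayed between 1.03 and 2.78 and the 10 lower ones between -3.94 and -1.04.

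**Figure D2:**
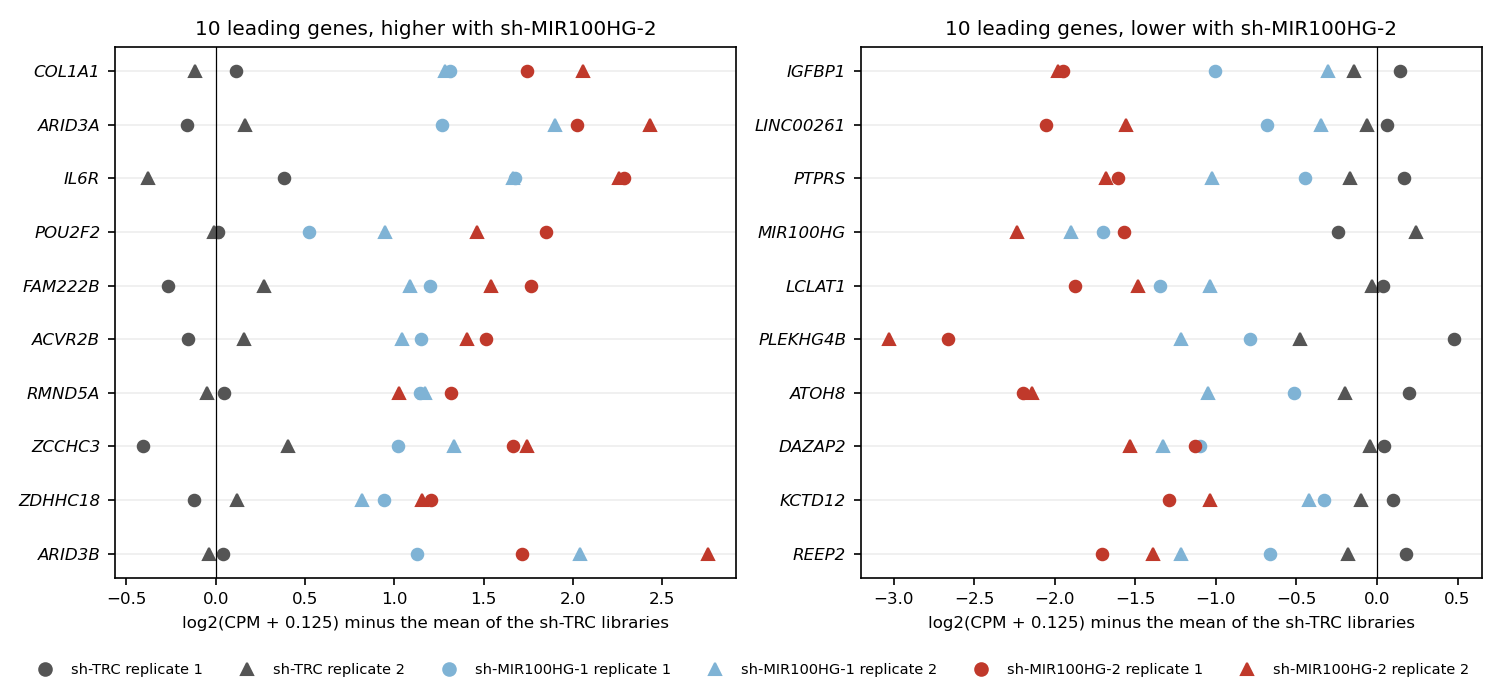
The 10 higher and 10 lower genes with the smallest p, each point one library, on the x axis as log2(CPM + 0.125) minus the mean of the sh-TRC libraries. The sh-MIR100HG-2 libraries (red) lie apart from the controls (grey) by construction of the choice, and the sh-MIR100HG-1 libraries (blue), which the choice did not use for the order of the groups, lie between the groups for all of these genes but MIR100HG, RMND5A, ARID3B and DAZAP2.

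In absolute reads ACTB, SDC4, EEF1A1 and CSF1 were among the 5 largest higher differences. SDC4, a cell-surface heparan sulphate proteoglycan, was at 1592 and 1465 CPM in the controls and 3119 and 2288 CPM with sh-MIR100HG-2 (log2FC 0.82, adjusted p = 0.498). CSF1, the growth factor of macrophages, was at 463 and 762 CPM against 1519 and 1462 CPM (log2FC 1.28, standard error 0.30, adjusted p = 0.443), and passed both the likelihood ratio test (adjusted p = 0.0311) and DESeq2 (adjusted p = 0.0241). The direct differences to sh-MIR100HG-1 were 0.78 and 1.03 and did not pass (adjusted p = 0.509 for both). ACTB, beta-actin, was at 4022 and 5667 CPM in the controls and 5908 and 9959 CPM after knockdown, and EEF1A1, a translation elongation factor, at 6119 and 6602 CPM against 6688 and 7966 CPM (adjusted p = 0.768). ACTB and EEF1A1 have many near-identical pseudogenes, so that their counts are uncertain.

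The 5 largest lower differences were all mRNAs encoded in the mitochondrial genome, which holds 13 protein-coding genes for subunits of complexes I, III, IV and V of the respiratory chain. MT-CO1, the catalytic subunit of cytochrome c oxidase, was at 7696 and 5753 CPM in the controls and 2921 and 3342 CPM with sh-MIR100HG-2 (log2FC -1.10, standard error 0.22, adjusted p = 0.406). It passed the likelihood ratio test (adjusted p = 0.0148) and DESeq2 (adjusted p = 0.00942), and with sh-MIR100HG-1 it was at 6114 and 6563 CPM (direct difference -1.02, adjusted p = 0.509). Of the other subunits of that complex, MT-CO2 was at 3942 and 3013 CPM against 1981 and 2582 CPM, and MT-CO3 at 3122 and 2429 CPM against 1705 and 1959 CPM. For complex I, MT-ND5 was at 2635 and 1897 CPM against 1217 and 1510 CPM, and for complex III, MT-CYB was at 1924 and 1263 CPM against 934 and 1057 CPM.

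A list of all 13 was added after these values were seen. All 13 had a log2FC below 0 (median -0.62), 10 were lower at p under 0.05 (76.9%, against 5.15% of all genes), and the groups did not overlap in 11 (84.6%, against 20.4% with lower knockdown libraries). MT-ND3 was nearest to the controls (1013 and 1018 CPM against 817 and 1063 CPM), and its sign turned without the first knockdown library. The count of 10 fell to 1 without the first control library and to 1 without the first knockdown library, while the median stayed at -0.37 and -0.49. It was 10 without the 2 libraries that stood apart. In the direct test 12 of the 13 were lower with sh-MIR100HG-2 than with sh-MIR100HG-1 at an unadjusted p under 0.05, and 0 at an adjusted one. The share of all counts on these genes was 3.46% and 2.41% in the controls, 1.52% and 1.84% with sh-MIR100HG-2, and 3.30% and 3.38% with sh-MIR100HG-1. Reads from nuclear copies of mitochondrial genes cannot be told apart in these counts. The 34 nuclear genes of oxidative phosphorylation had a median log2FC of 0.09, with 0 higher and 1 (ATP5PO) lower at p under 0.05. This median was 0.09 where that of the mitochondrial mRNAs was -0.62.

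**Figure D3:**
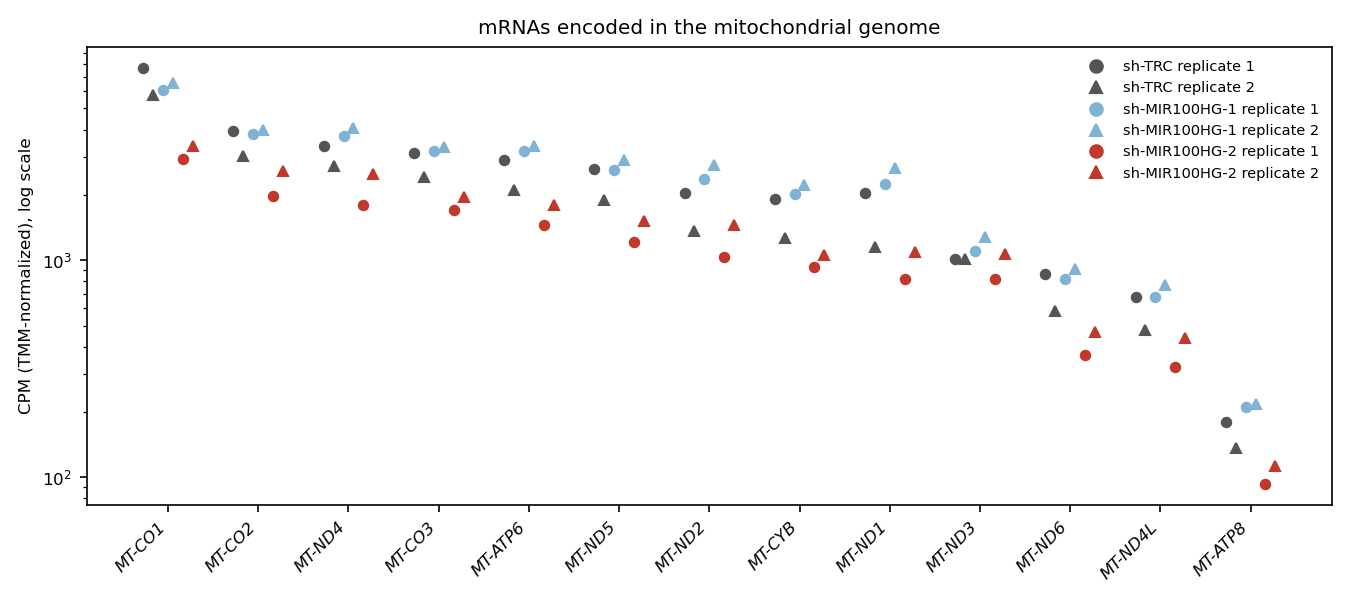
The 13 protein-coding mitochondrial mRNAs in each library, in TMM-normalized CPM on a log axis. In 11 of the 13 both sh-MIR100HG-2 libraries (red) lie below both controls (grey), and the first control lies above the second in all but MT-ND3.

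Some inflammatory genes were high with sh-MIR100HG-2. ICAM1, the adhesion molecule that binds leukocyte integrins, was at 239 and 265 CPM in the controls and 1102 and 662 CPM with sh-MIR100HG-2 (log2FC 1.81, standard error 0.33, adjusted p = 0.396), and passed the likelihood ratio test (adjusted p = 0.000745) and DESeq2 (adjusted p = 0.000326). CXCL1, a neutrophil chemokine, was at 62.8 and 45.8 CPM against 244 and 185 CPM (log2FC 1.98, standard error 0.53, adjusted p = 0.455). With sh-MIR100HG-1 ICAM1 was at 215 and 363 CPM, a direct difference of 1.61 (adjusted p = 0.509). TNFAIP2 was at 344 and 372 CPM in the controls, 667 and 506 CPM with sh-MIR100HG-2 and 256 and 292 CPM with sh-MIR100HG-1. NFKBIA, the inhibitor of NF-kB and one of its targets, was at 283 and 244 CPM against 516 and 458 CPM, and NFKB2 at 256 and 301 CPM against 433 and 386 CPM. IL1B went the other way, from 30.7 and 14.9 CPM to 11.2 and 4.97 CPM. In the whole list of 24 cytokines and NF-kB targets 6 were higher (25%, against 3.71% of all genes) and 1 lower, with a median log2FC of 0.30. The counts were 5 higher and 3 lower without the second control library (median 0.01) and likewise without the 2 libraries that stood apart, 3 and 4 without the first knockdown library (median -0.08), and 7 and 0 without the first control library (median 0.80). NFKBIA, NFKB2 and IL1B were picked after their values were seen.

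Interferon-stimulated genes were at a higher level with sh-MIR100HG-2 than with sh-MIR100HG-1, and on both sides of the controls. Of 39, 1 was higher (2.56%, against 3.71% of all genes) and 2 were lower (5.13%, against 5.15%) with sh-MIR100HG-2 (median log2FC 0.01). In 21 of the 39 sh-MIR100HG-2 was above sh-MIR100HG-1 at p under 0.05 and in 0 below. Over all genes 9.45% differed between the shRNAs in one direction or the other. It was sh-MIR100HG-1 that lay away from the controls, with 23 of the 39 lower and 0 higher at p under 0.05 (median -0.89). RSAD2, an antiviral enzyme, was at 26.2 and 35.1 CPM in the controls, 94.1 and 41.3 CPM with sh-MIR100HG-2 and 14.5 and 18.5 CPM with sh-MIR100HG-1. DDX60, a helicase of antiviral sensing, was lower with sh-MIR100HG-2 (231 and 300 CPM against 146 and 90.4 CPM, log2FC -1.17, adjusted p = 0.445), and ISG15 was at 721 and 1027 CPM against 607 and 517 CPM. The controls were themselves apart in this list. Against the mean of the controls its median lay at -0.26 in the first and 0.26 in the second, and at 0.34 and -0.24 in the sh-MIR100HG-2 libraries, and 13 of the 39 were higher and 3 lower without the 2 libraries that stood apart. Without the first sh-MIR100HG-2 library 0 were higher and 8 lower. The 16 genes of MHC class I presentation had a median of 0.20 (0.61 without the 2 libraries) with 0 at p under 0.05. In 8 of them sh-MIR100HG-2 was above sh-MIR100HG-1 at p under 0.05, and the median of sh-MIR100HG-1 against the controls was -0.54.

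EGR1, FOS and FOSB, immediate early genes that are switched on within minutes of growth factors or stress, were low in both sh-MIR100HG-2 libraries and in 1 control. EGR1 was at 451 and 39.3 CPM in the controls, 22.0 and 25 CPM with sh-MIR100HG-2, and 281 and 174 CPM with sh-MIR100HG-1. FOS was at 182 and 3.06 CPM in the controls and 4.23 and 6.83 CPM with sh-MIR100HG-2, and FOSB at 216 and 2.06 CPM against 2.03 and 5.67 CPM. With sh-MIR100HG-1 FOS was at 252 and 242 CPM and FOSB at 252 and 313 CPM. The second control library thus had the levels of the sh-MIR100HG-2 libraries. At p under 0.05, 6 of the 25 genes of the list were lower (24.0%, against 5.15% of all genes) and 1 (SPRY4) was higher (4.0%, against 3.71%). A log2FC above 0 was found in 12 of the 25 (median -0.03), and the median was 0.23 without the first control library. The count of lower genes rested on that library. Without it the log2FC was -0.74 for EGR1, -0.97 for EGR2 and -0.88 for EGR3, against -3.38, -2.97 and -2.53 with it. FOS and FOSB were picked after their values were seen, and the part that the handling of the cells had in these values was not tested.

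Regulators of apoptosis leaned to the higher side. Of 27 tested, 4 were higher (14.8%, against 3.71% of all genes) and 0 lower (0.0%, against 5.15%) at p under 0.05. A log2FC above 0 was found in 22 (median 0.26), and in 12 both knockdown libraries lay above both controls (44.4%, against 18.1% of all genes). The counts were 1 higher and 0 lower without the first control library and 2 and 2 without the first knockdown library. BBC3 (PUMA), an activator of cell death and a p53 target, was at 23.3 and 18.4 CPM in the controls and 47.1 and 46.1 CPM with sh-MIR100HG-2 (log2FC 1.16, standard error 0.23, adjusted p = 0.406), and passed the likelihood ratio test (adjusted p = 0.0154) and DESeq2 (adjusted p = 0.00126). With sh-MIR100HG-1 it was at 25 and 27.8 CPM (direct difference 0.82, adjusted p = 0.509). The killer BAK1 (80.5 and 142 CPM against 180 and 190 CPM) and the survival factor MCL1 (520 and 548 CPM against 816 and 754 CPM) were both higher, so the list held members of opposite function. Of 25 p53 targets, CDKN1A and BBC3 were the 2 that were higher at p under 0.05 (8.0%, against 3.71% of all genes). In that list 0 were lower, and the median of 0.07 was -0.06 without the second knockdown library.

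Matrix and adhesion lists had members at p under 0.05 in both directions. COL7A1, the collagen of anchoring fibrils, was at 81.8 and 73.7 CPM in the controls and 45.3 and 32.0 CPM with sh-MIR100HG-2 (log2FC -1.01, adjusted p = 0.445), opposite to COL1A1. Of 25 collagens and matrix genes 2 were higher (8.0%, against 3.71% of all genes) and 1 lower (4.0%, against 5.15%), with a median of 0.07, and 4 and 1 without the 2 libraries that stood apart (median 0.31). ITGA5, the fibronectin receptor chain, was at 322 and 647 CPM against 1024 and 1068 CPM (log2FC 1.11, adjusted p = 0.498). LAMA3, a laminin alpha chain, was lower, at 72 and 72.5 CPM against 48.4 and 41.1 CPM (log2FC -0.69, adjusted p = 0.498). Among 22 integrins and laminins 2 were higher and 2 lower (9.09% each, against 3.71% and 5.15% of all genes). A log2FC below 0 was found in 16 of the 22 and in 8326 of all 15372 genes. The median of this list was -0.28, and ran from -0.65 to -0.07 when 1 library was left out. Of 21 proteases and inhibitors, PLAUR, the urokinase receptor, was higher (223 and 242 CPM against 353 and 312 CPM) and ADAM10 lower. These shares were 4.76% each, against 3.71% and 5.15% of all genes. The median of 0.22 was -0.07 without the first control library and 0.19 without the 2 libraries that stood apart.

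Epithelial and mesenchymal genes gave few differences. Of 28 junction and keratin genes, 1 was higher (CLDN4, 177 and 238 CPM against 283 and 331 CPM) and 0 lower. Of 18 EMT factors and mesenchymal markers, 1 was higher (MSN, 1186 and 1271 CPM against 1629 and 1933 CPM) and 0 lower. The shares higher were 3.57% and 5.56%, near the 3.71% of all genes. Targets of the Hippo effectors YAP and TEAD had 3 of 24 higher (12.5%, against 3.71% of all genes) and 0 lower (median 0.19), but 3 higher and 3 lower without the second knockdown library (median 0.02). PTPN14, itself a YAP inhibitor, was at 207 and 221 CPM in the controls and 333 and 383 CPM with sh-MIR100HG-2 (log2FC 0.74, adjusted p = 0.455), and TEAD4 at 18.8 and 21.8 CPM against 32.8 and 37.7 CPM. FJX1 was at 66.7 and 95.5 CPM against 152 and 140 CPM.

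Metabolic lists had medians of 0.09 to 0.21, against -0.04 over all genes. The median also rose with level, to 0.07 over all genes of 30 to 100 CPM and 0.15 over those above 100 CPM. How much of the list medians goes with level was not tested. SLC2A3, the high-affinity glucose transporter, was at 62.2 and 79.2 CPM in the controls and 199 and 155 CPM with sh-MIR100HG-2 (log2FC 1.32, standard error 0.26, adjusted p = 0.406), and passed both other tests (adjusted p of 0.00608 by the likelihood ratio test and 0.00136 by DESeq2). The 34 glycolysis and hypoxia genes otherwise had 1 more higher gene, P4HA2, and a median of 0.09. In the list of 33 genes of cholesterol and fatty acid synthesis 2 were higher (6.06%, against 3.71% of all genes) and 1 (TM7SF2) was lower (3.03%, against 5.15%). A log2FC above 0 was found in 25, with a median of 0.21 that became -0.14 without the second knockdown library and 0.48 without the first. SLC7A11, the cystine transporter that ATF4 and NRF2 both induce, was lower (101 and 33.6 CPM against 17.8 and 30.5 CPM, log2FC -1.48, adjusted p = 0.508). The 33 ATF4 targets and tRNA synthetases had medians of -0.28 and 0.47 in the 2 knockdown libraries (10 higher without the first), and the 24 heat shock genes of 0.09 and 0.37.

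Protein synthesis and turnover genes had small and even differences. Of 31 proteasome subunits, 27 had a log2FC above 0 and in 18 both knockdown libraries lay above both controls (58.1%, against 18.1% of all genes), with a median log2FC of 0.22 that ranged from 0.16 to 0.30 over the other settings, and 0 passed at p under 0.05. PSMD11 was at 217 and 209 CPM in the controls and 258 and 332 CPM with sh-MIR100HG-2. The 47 cytosolic ribosomal protein genes had a median of 0.10, with 0 at p under 0.05. Both medians stand beside one of 0.15 over all genes above 100 CPM. The 26 NRF2 and glutathione genes had a median of 0.26 with 1 (SLC7A11) lower, and 10 replication-dependent histone genes had medians of -0.50 and 0.86 in the 2 knockdown libraries, one on each side of the controls at 0.43 and -0.43.

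**Figure D4:**
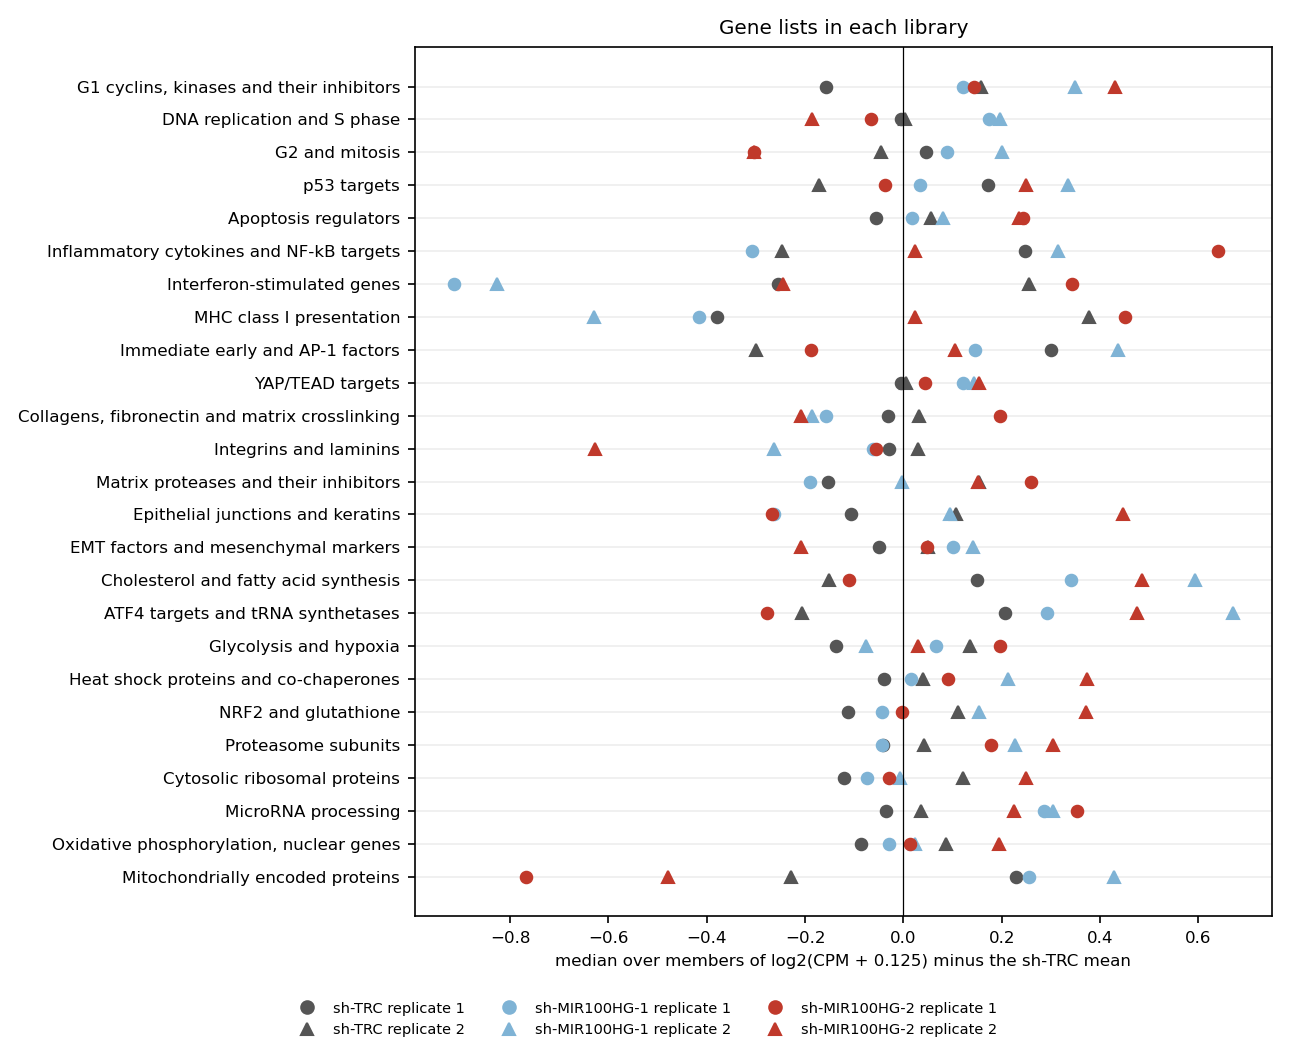
The median of each gene list in each library, as log2(CPM + 0.125) minus the mean of the sh-TRC libraries, for 25 lists. The sh-MIR100HG-2 libraries (red) lie together below the controls (grey) for G2 and mitosis (-0.30 in both) and above them for apoptosis regulators (0.24 in both), and lie far apart from each other for cholesterol synthesis, ATF4 targets and keratins.

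Genes of microRNA processing leaned to the higher side. DICER1, which cuts precursors and shRNAs alike, was at 78.2 and 54.8 CPM in the controls, 144 and 147 CPM with sh-MIR100HG-2 and 203 and 291 CPM with sh-MIR100HG-1 (log2FC of sh-MIR100HG-2 1.13, standard error 0.27, adjusted p = 0.443). It passed the likelihood ratio test (adjusted p = 0.0382) and DESeq2 (adjusted p = 0.0202). TNRC6B was at 59.4 and 44.2 CPM against 80.9 and 89.0 CPM, and TNRC6C at 29.0 and 27.8 CPM against 47.2 and 41.4 CPM, both scaffolds that Argonaute uses to silence mRNAs. Of 16 genes in the list, 3 were higher (18.8%, against 3.71% of all genes) and 0 lower (median 0.31), and in 8 both knockdown libraries lay above both controls (50.0%, against 18.1%) and in 0 below.

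Sites for the seeds shown above were then counted in 3′UTRs. A site was a perfect 7-base match on the mRNA strand (CTACCTC for let-7a-5p, CTCAGGG for miR-125b-5p, TACGGGT for miR-100-5p and AGAATAA for the sh-MIR100HG-2 guide) in the longest annotated 3′UTR of the gene, which 13989 of the tested genes had. Of these, 4.01% were higher and 5.03% lower at p under 0.05. Of the 1648 genes with a let-7a-5p site (11.8% of those with a 3′UTR), 7.16% were higher and 3.22% lower, and of the 12341 without one 3.59% were higher and 5.27% lower. Of the 2409 genes with a miR-125b-5p site (17.2%), 6.97% were higher and 4.36% lower, against 3.39% and 5.16% of the rest. The medians differed little, at 0.03 with and -0.03 without a let-7a-5p site and 0.02 with and -0.04 without a miR-125b-5p site, and with upper-quartile scaling all 4 were below 0. No test was made of these shares, because genes are not replicates. Mature microRNAs were not measured in these libraries, and whether the shares go with their levels was not tested. By qPCR the study found the hosted microRNAs unchanged when MIR100HG was overexpressed. From this it proposed that MIR100HG does not act through them. Its legends give these microRNA levels for overexpression and not for knockdown.

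The share of higher genes was larger with a site in short, middle and long 3′UTRs alike. For let-7a-5p it was 8.05% with and 2.70% without a site in short 3′UTRs, 7.22% and 3.85% in middle ones and 7.01% and 4.39% in long ones. It was 7.15% of 1441 genes with 1 site, 6.21% of 177 with 2 and 13.3% of 30 (4 genes) with 3 or more. Their median log2FC was 0.03, 0.06 and -0.04, against -0.03 without a site. For miR-125b-5p the share was 6.62%, 7.65% and 10.2% in genes with 1, 2 and 3 or more sites. The medians were 0.02, 0.03 and 0.01. With sh-MIR100HG-1 the medians in the same order were 0.05, 0.12 and 0.14 for let-7a-5p and -0.02, -0.06 and -0.16 for miR-125b-5p. ARID3A had 2 let-7a-5p and 3 miR-125b-5p sites, ARID3B 1 and 5, FAM222B 2 and 2, and CDC25A 2 let-7a-5p sites. Of the 10 leading higher genes 6 had a let-7a-5p site and 6 a miR-125b-5p site. Of the 10 leading lower ones 0 and 4 did, and MIR100HG and LINC00261 among these have no annotated 3′UTR. Without the first control library 3.70% of let-7a-5p genes and 1.54% of the rest were higher, and without the 2 libraries that stood apart 5.04% and 3.01%. Without the first knockdown library let-7a-5p genes were as often lower (8.56%) as higher (8.56%).

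Of 191 genes with a miR-100-5p site (1.37%), 6.81% were higher and 3.14% lower. Genes with a seed site of the sh-MIR100HG-2 guide (2975, or 21.3%) had 3.63% higher and 4.54% lower, against 4.11% and 5.16% of the rest, and a median log2FC of -0.05 against -0.02. The median without the second control library was -0.11 against 0.01, and without the first it was 0.05 against -0.01, so the sign of this difference rested on single libraries.

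**Figure D5:**
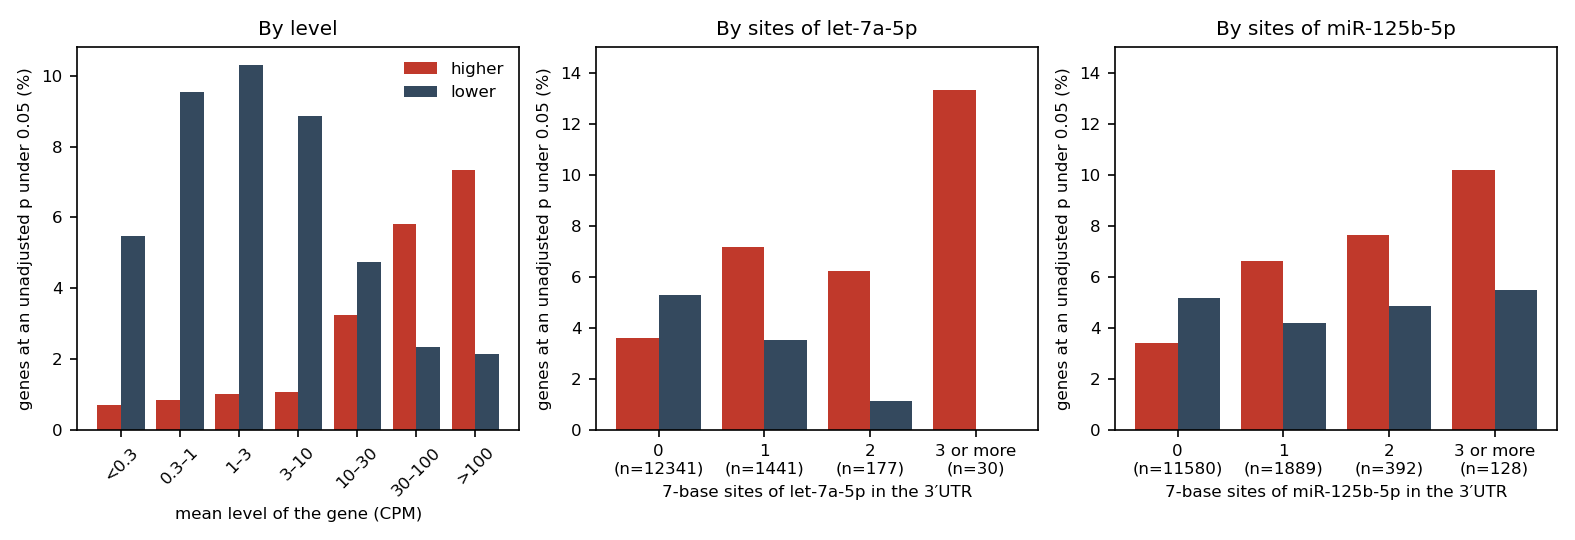
The percent of genes higher (red) and lower (dark) with sh-MIR100HG-2 at an unadjusted p under 0.05, by mean level of the gene and by the number of let-7a-5p or miR-125b-5p sites in its 3′UTR (n, number of genes). Lower genes outnumbered higher ones below 30 CPM and the reverse held above, and with 1 or more let-7a-5p sites higher genes outnumbered lower ones.

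Level and direction went together across all genes. Genes with a mean of 0.3 to 1 CPM had a median log2FC of -0.49, with 0.856% higher and 9.55% lower, and those above 100 CPM one of 0.15, with 7.34% higher and 2.15% lower. Genes that the filter removed took 299 and 437 CPM of library total in the controls, 139 and 147 with sh-MIR100HG-2 and 478 and 199 with sh-MIR100HG-1. The 164 genes lower by a log2FC beyond 2 stand beside this shift of all weakly expressed genes, and its part in them was not tested.

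Markers of other cell types were few and weak. Of 9 blood and endothelial markers listed, 6 were tested and 1 (PTPRC, at 0.12 to 0.689 CPM) was lower at p under 0.05, of 7 fibroblast markers 4 were tested and of 7 markers of the kidney line that made the virus 3 were tested, with 0 in either direction. Of 8 receptor and luminal markers 7 were tested, all with a log2FC below 0, and 1 (ESR1) was lower. ESR1 was at 2.38 CPM in the second control library and at most 0.186 CPM in the other 3 compared. The 6 mesenchymal markers of the line had 1 higher (MSN) and 0 lower.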

How the data were processed

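Total RNA of 6 infected MDA-MB-231 cultures was sequenced on Illumina libraries. The authors aligned the reads with STAR (2.5.2a by the submitters' processing notes) to GRCh37 and counted them on GENCODE genes with FeatureCounts, and they deposited raw counts per gene for each library. Strandedness is not given in the sources used here, so reads of overlapping and antisense genes cannot be told apart.

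Genes with at least 5 counts in at least 4 samples were kept (15372, with 12373 removed), TMM factors were computed, and edgeR 4.0.16 (R 4.3.3) fitted all 6 libraries in one quasi-likelihood model, so that 3 residual degrees of freedom gave the spread. P-values were adjusted by Benjamini-Hochberg over all genes. The common biological coefficient of variation was 27.8%. Alternatives were edgeR's likelihood ratio test, DESeq2 1.42.0, other normalizations and filters, a replicate block, and the fit without single libraries. The fit without the 2 libraries that stood apart was chosen after seeing the data. The code was tested on simulated data. Totals per library were 43804736 to 64588388 counts.

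Genes named were MIR100HG, its neighbours, the cell cycle genes the study names, the 10 higher and 10 lower genes with the smallest p (mean of 1 CPM or more, no overlap), the 5 in each direction with the largest CPM difference, and the 3 members of each list with the smallest p. The comparison, the named members and the lists were chosen with earlier results of these data known. 3′UTRs came from GENCODE release 44 on GRCh37, and microRNAs from RefSeq. The log2 values of libraries used a pseudocount of 0.125 CPM. A few genes that this rule names are not reported here.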

Additional observations from a re-analysis of the deposited data

Results flagged for a closer look

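These results lay on opposite sides of the controls with the 2 shRNAs: both sh-MIR100HG-2 libraries were beyond both sh-TRC libraries in one direction and both sh-MIR100HG-1 libraries beyond them in the other. That arrangement itself was not tested, and the controls are shared. Values are differences of sh-MIR100HG-2 minus sh-MIR100HG-1 on the log2 scale.

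Of the mitochondrial mRNAs, 7 had this arrangement, lower with sh-MIR100HG-2 and higher with sh-MIR100HG-1, and the others, MT-CO1 among them, did not. The difference was -0.83 for MT-CO3, -0.86 for MT-ND4, -1.09 for MT-CYB, -1.06 for MT-ATP8, -1.01 for MT-ATP6, -1.35 for MT-ND1 and -0.92 for MT-ND4L, and -0.96 for the mean of the 13 mRNAs. COX6C, a nuclear gene of the same oxidase, differed by -0.59. The mean of the S-phase genes differed by -0.27.

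RSAD2 and TNFAIP2 were higher with sh-MIR100HG-2 and lower with sh-MIR100HG-1. The difference was 2.04 for RSAD2 and 1.10 for TNFAIP2.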

How the results depend on the processing

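With 2 libraries a group, 0 genes passed the quasi-likelihood test after adjustment. Without the filter on low counts 517 of 21349 genes passed (163 higher, 354 lower), with the likelihood ratio test 121, with DESeq2 167, and without the 2 libraries that stood apart 14, all lower. Leaving out 1 library gave 0 to 4 genes. Beyond a log2FC of 2 these counts were 218, 41, 30 and 14, and 0 to 4 when 1 library was left out. The cause of the rise without the filter was not tested. The unadjusted p was under 0.05 in 1362 genes, in 2111 without the filter, and 617 (without sh-TRC replicate 1) to 1944 (without sh-MIR100HG-2 replicate 1) when 1 library was left out. Upper-quartile scaling split them into 432 higher and 978 lower against 570 and 792, and moved the median of all genes from -0.04 to -0.11.

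The log2FC of MIR100HG was -1.89 without the filter, -1.90 with the likelihood ratio test and -1.87 with DESeq2, where it passed at an adjusted p of 0.05, and ran from -2.27 to -1.61 when 1 library was left out.

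Same-numbered libraries of sh-TRC and sh-MIR100HG-2 had deviations that correlated at 0.022, those of sh-TRC and sh-MIR100HG-1 at -0.213 and those of the shRNAs at 0.497, so the numbers were not taken as pairs of knockdown and control. A fit with the replicate block gave 1826 genes at an unadjusted p under 0.05 and a log2FC of -1.92 for MIR100HG, and turned COL1A2 to -0.35.

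The sign turned with upper-quartile scaling for UBASH3B (-0.022) and CD68 (-0.021). Without the 2 libraries that stood apart it turned for VIM (0.060), TFF1 (0.65), ERBB2 (0.075), VWF (0.026), CD14 (0.46), LUM (-0.28), COL1A2 (-0.10) and GATA2 (0.028). When 1 library was left out, these genes changed sign within the ranges given. UBASH3B ran from -0.19 to 0.22, H2BC12 from -0.0071 to 2.21, H2BC5 from -0.23 to 1.78, ZEB1 from -0.79 to 0.091, CD44 from -0.17 to 0.33 and VIM from -0.18 to 0.060. TFF1 ran from -1.54 to 0.65, ERBB2 from -0.30 to 0.075, VWF from -1.34 to 0.026, KDR from -2.07 to 0.28 and CD14 from -1.08 to 0.46. CD68 ran from -0.036 to 0.10, COL3A1 from -2.82 to 0.27, LUM from -0.30 to 1.21, FAP from -1.12 to 1.36, COL1A2 from -1.38 to 0.78, GATA2 from -0.54 to 0.16 and MT-ND3 from -0.32 to 0.067.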
